A study of Arabidopsis thaliana with 4 samples.

Results

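The genes described here are the nuclear genes whose annotation calls the product a structural constituent of the ribosome and mentions the chloroplast but not the cytosol. The rule used the annotation text alone and no measured value, and it found 38 genes among the 33539 rows used. Of these, 21 are recognised proteins of the plastid ribosome, with 14 of the large subunit and 7 of the small subunit. The other 17 are not on that recognised list, and AT1G26910 (RPL10B) is by its name a gene of the cytosolic ribosome. Among the 17 are 5 of the L34e superfamily, which takes its name from a protein of the cytosolic ribosome. They also hold 4 L12-like proteins for which the chloroplast is mentioned only in the comparison with other proteins. Another 20 of the 41 recognised nuclear genes of the plastid ribosome lie outside the rule. The group is therefore only partly what its name says, and its recognised members and its other members are given separately below.

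The study asked how Arabidopsis thaliana seedlings without WBC19, an ABC transporter gene known for its part in kanamycin resistance, respond to that antibiotic. Polyadenylated RNA of 5-day-old seedlings was sequenced from a control line (SALK_064816C, with a T-DNA upstream of TT4) and from the wbc19 mutant line (SALK_107731), each without and with kanamycin at 50 mg/l, so that there were 4 libraries. Both lines carry the T-DNA with NPTII, the kanamycin resistance gene, so that no group lacks it. Each condition had 1 library and 1 insertion line stood for each genotype, so that every difference below is between single libraries, has no replicate check and carries no p-value.

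WBC19 itself (AT3G55130) was listed at 0 in both control libraries, where 3 reads would have been worth 1.61 FPKM without kanamycin and 0.809 FPKM with it. Of the libraries labelled wbc19 mutant, that without kanamycin gave 3.00 FPKM (about 9 reads) and that with it 2.30 FPKM (about 4 reads). The transcript level of the targeted gene thus went against the label, on few reads, and a value for the whole gene does not show on which side of the insertion they lie. The wbc19 libraries are therefore named below by their labels only. FPKM is the number of fragments relative to transcript length and to all mapped fragments of the library. TT4 (AT5G13930), the flavonoid gene next to the insertion of the control line, was at 86.3 FPKM in the control library, 80.8 FPKM in control + kanamycin, 215 FPKM in the wbc19 mutant library and 190 FPKM in wbc19 mutant + kanamycin.

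The plastid ribosome is of the bacterial kind and makes the proteins that the plastid genome encodes, among them core subunits of the photosystems and of Rubisco. Its own proteins come from both genomes, and most of those of the large subunit come from nuclear genes, whose products are imported. Kanamycin binds the decoding site of the small subunit rRNA in bacteria and in plastids, and seedlings that lack resistance bleach on it. The study saw no visible symptoms in its control seedlings on kanamycin. It describes the wbc19 mutants on kanamycin as stunted in the root, with green leaves. In green tissue the nuclear genes of this ribosome are highly expressed, since young leaves build many plastid ribosomes.

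Promoters of ribosomal protein genes in plants often hold a site II element (TGGGCC or TGGGCT on either strand), the binding motif of TCP factors, or a telo box (AAACCCTA on either strand). These letters were searched in the 250 bases before the RefSeq gene start (assembly TAIR10.1). Site II was found in 7 of the 21 recognised members (33.3%), in 6 of the 17 other members (35.3%), in 8 of the 20 recognised genes outside the rule (40%), in 109 of 152 genes of cytosolic ribosomal proteins (71.7%) and in 19.4% of all 26554 nuclear protein-coding genes. The telo box was found in 0 of the 21 recognised members, in 2 of the other 17 (11.8%), in 5 of the 20 outside the rule (25%), in 35 of the 152 cytosolic genes (23%) and in 4.46% of all promoters. The windows below belong to members with several matches: PRPL19A and PRPL6, which were highest in the wbc19 mutant library, and PRPS10, whose lowest level was there. Capitals mark site II letters, where overlapping matches of both strands run together.
PRPL19A (AT4G17560, plus strand, chr4:9779974-9780223): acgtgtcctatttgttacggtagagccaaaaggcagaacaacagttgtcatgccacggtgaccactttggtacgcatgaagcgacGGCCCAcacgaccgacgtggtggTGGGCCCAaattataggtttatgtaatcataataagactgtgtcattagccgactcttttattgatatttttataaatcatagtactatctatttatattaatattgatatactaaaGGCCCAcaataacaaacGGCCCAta
PRPL6 (AT1G05190, minus strand, chr1:1503854-1504103): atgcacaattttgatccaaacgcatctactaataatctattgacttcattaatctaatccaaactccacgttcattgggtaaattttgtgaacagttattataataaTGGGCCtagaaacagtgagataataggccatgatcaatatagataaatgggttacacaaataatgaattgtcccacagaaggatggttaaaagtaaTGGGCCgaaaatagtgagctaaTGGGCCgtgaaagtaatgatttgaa
PRPS10 (AT3G13120, minus strand, chr3:4221667-4221916): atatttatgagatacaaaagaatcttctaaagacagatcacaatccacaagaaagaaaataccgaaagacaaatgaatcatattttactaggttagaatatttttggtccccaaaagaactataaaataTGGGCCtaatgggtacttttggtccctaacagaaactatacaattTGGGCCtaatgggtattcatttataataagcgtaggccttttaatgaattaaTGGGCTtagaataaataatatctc
PRPL19A held 5 matches, PRPL6 3 and PRPS10 3. These genes were picked for holding several, so that the letters they share carry no result on their levels. Whether members with a match differed in level from those without was not tested. A match is a description of the sequence and does not show that a factor binds there.

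The 4 libraries differed in how much they sampled. The smallest FPKM values fell on steps that fit whole reads, so that 1 read per kilobase was worth 1.34 FPKM in the control and in wbc19 mutant + kanamycin, 0.671 FPKM in control + kanamycin and 0.795 FPKM in the wbc19 mutant library. Yet 15072 rows were above 0 in the control, 11090 in control + kanamycin, 9013 in the wbc19 mutant library and 13217 in wbc19 mutant + kanamycin. Of the nuclear genes above 0 with a single transcript, 20.6% in the control and 19.4% in wbc19 mutant + kanamycin had under 2.5 reads, against 3.89% in control + kanamycin and 4.57% in the wbc19 mutant library. The libraries worth most reads thus held fewest genes, and fewest of the lowest values. All 10 leaf markers were above 0 in every library, the lowest at 527 FPKM, and their sum was 21400, 19539, 25429 and 21901 FPKM in the order control, control + kanamycin, wbc19 mutant and wbc19 mutant + kanamycin. Of 24 root markers, 16, 8, 5 and 14 were above 0 in that order, and their sum was 993, 713, 1390 and 596 FPKM, most of it from PYK10. CASP1, EXPA7 and the rest of that list apart from PYK10 summed to between 82.7 and 107 FPKM. In whole seedlings, fewer cells of a type and less RNA per cell cannot be told apart, and the part of these differences in the results below was not tested.

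All but 1 of the recognised members were highly expressed. The 20 that passed a mean of 5 FPKM over the 4 libraries lay between 83.03 and 380 FPKM, with a median of 196, while the median of all 9761 rows that passed was 14.6 FPKM. None of the 20 was listed at 0 in any library, and their lowest value rested on about 25 reads. The exception was PSRP3B (AT5G15760), the weaker of the genes of plastid-specific protein PSRP3, at 2.02 FPKM (about 1 read) in the control and listed at 0 in the others. Its paralog PSRP3A (AT1G68590) was at 218, 174, 78.7 and 177 FPKM in the same order of libraries. The summed level of all 38 members was 4982 FPKM in the control, 4257 FPKM in control + kanamycin, 4330 FPKM in the wbc19 mutant library and 3849 FPKM in wbc19 mutant + kanamycin. Of these sums the recognised members made up 4690, 4113, 4049 and 3676 FPKM.

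**Figure D1:**
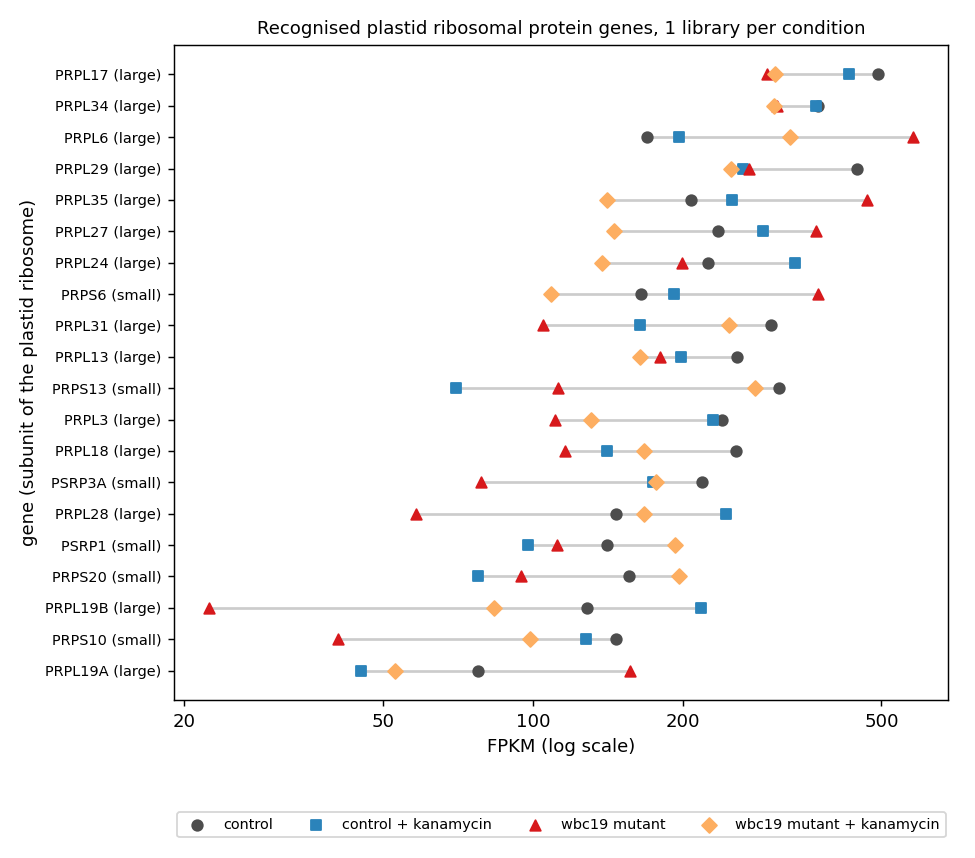
FPKM of the 20 recognised members whose mean reached 5 FPKM (log axis), 1 point per library and a grey line from the lowest to the highest, ordered by mean. PRPL34 spans a 1.23-fold range and PRPL19B a 9.66-fold range, and the wbc19 mutant library holds the lowest value for 8 genes and the highest for 5.

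The most highly expressed member was PRPL17 (AT3G54210), which in bacteria sits at the exit of the peptide tunnel, at 491 FPKM in the control, 431 FPKM in control + kanamycin, 294 FPKM in the wbc19 mutant library and 305 FPKM in wbc19 mutant + kanamycin. PRPL34 (AT1G29070) was the steadiest, at 373, 369, 309 and 304 FPKM, a 1.23-fold range. PRPL29 (AT5G65220), whose bacterial counterpart also borders the tunnel exit, was at 447 FPKM in the control and between 250 and 272 FPKM in the other libraries. PRPL13 (AT1G78630), an early assembly protein of the large subunit in bacteria, was at 256, 198, 180 and 164 FPKM. These 4 proteins of the large subunit did not reach a 2-fold difference in any comparison, and all were highest in the control. PSRP1 (AT5G24490), a relative of bacterial factors that hold ribosomes inactive, also stayed within 2-fold, at 141, 97.6, 112 and 193 FPKM. Over the 20 genes the range from lowest to highest library had a median of 2.66-fold. It was 2.17-fold over the rows with a mean of at least 100 FPKM that were above 0 in every library. At that level 91 of 781 rows were listed at 0 in some library, have no such ratio and were left out. The 2 medians are therefore not on equal terms, and PRPL19A, 1 of the 20, had a mean below 100 FPKM.

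Between control + kanamycin and control, 1 of the recognised members passed the limit used here. A gene counts as apart here when log2 of (FPKM + 1) differed by at least 1, which is 2-fold, and this was so for 1 of the 20, against 57.4% of all rows that passed (26.6% higher and 30.8% lower). At a like level of expression, with a mean of at least 100 FPKM, it was 1 of 19 (5.26%) against 25.2% of 781 rows and 17.9% of 592 nuclear protein-coding genes. The gene was PRPS13 (AT5G14320), which in bacteria forms bridges between the subunits. It stood at 311 FPKM in the control (268 to 359, exact 95% Poisson interval of the estimated reads) and 70.3 FPKM (56.1 to 86.9) in control + kanamycin, a log2 difference of -2.13. It was at 112 FPKM in the wbc19 mutant library and at 278 FPKM (238 to 324) in wbc19 mutant + kanamycin, so that kanamycin went with a lower level in the control line and a higher level in the line labelled wbc19 mutant. PRPS20 (AT3G15190), a primary binder of the small subunit rRNA in bacteria, was at 156, 77.6, 94.8 and 196 FPKM, likewise lower with kanamycin in the control line and higher with it in the line labelled wbc19 mutant. Its log2 difference in the control line was -0.99, and it passed the limit at -1.002 with a pseudocount of 0.1 FPKM, at -1.05 scaled by median ratio and at -1.01 scaled to the same sum over nuclear protein-coding genes. Short of the limit but well away from 0 were also PRPL31 at -0.87, PRPL18 at -0.85, PRPL19A at -0.77, PRPL29 at -0.76, PRPL19B at 0.75 and PRPL28 at 0.73. The median log2 difference of the 20 genes was -0.19, and that of all rows that passed was 0.00. Scaled by the upper quartile of each library, 0 of the 20 were higher and 9 lower, beside 17.0% and 43.4% of all rows. The intervals cover the counting of reads only, and since PCR copies were not marked, reads are not independent molecules.

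Between the library labelled wbc19 mutant and the control, 11 of the 20 differed by 2-fold or more, with 3 higher and 8 lower, against 61% of all rows that passed (23.9% higher and 37.2% lower). At a mean of at least 100 FPKM it was the same number of 19 (57.9%), against 31.2% of the 781 rows and 24.2% of the 592 nuclear protein-coding genes. The median log2 difference of the 20 was -0.71, against -0.28 over all rows that passed and 0.00 over the 592 genes. The recognised genes outside the rule had 6 of 19 apart (31.6%), 1 higher and 5 lower, with a median of -0.63. Scaled by the upper quartile, 0 of the 20 were higher and 15 lower, beside 13.6% and 54.6% of all rows, while the counts of 3 and 8 stood under the other scalings. The library labelled wbc19 mutant had the fewest rows above 0, and the part of that in this count was not tested.

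The 3 higher genes code for proteins of both subunits. PRPL6 (AT1G05190), which in bacteria lies near the site where translation factors bind, was at 169 FPKM in the control (140 to 203), 196 FPKM in control + kanamycin, 579 FPKM (535 to 625) in the wbc19 mutant library and 327 FPKM in wbc19 mutant + kanamycin. Its log2 difference between the libraries without kanamycin was 1.77. PRPL35 (AT2G24090) was at 208, 251, 467 and 141 FPKM, with a log2 difference of 1.17. PRPS6 (AT1G64510), a protein of the platform of the small subunit, was at 165, 192, 373 and 109 FPKM, with a log2 difference of 1.18. All 3 were highest in the wbc19 mutant library, and PRPL35 and PRPS6 were lowest in the library of the same line with kanamycin. Scaled by the upper quartile of each library, none of the 3 was 2-fold apart, with log2 differences of 0.75, 0.15 and 0.16 in the same order.

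The 8 lower genes lay in both subunits too. PRPL19B had the largest difference, -2.46 on the log2 scale, and is described with its paralog. PRPS10 (AT3G13120), of the head of the small subunit, was at 147 FPKM in the control (121 to 176), 128 FPKM in control + kanamycin, 40.7 FPKM (30.5 to 53.3) in the wbc19 mutant library and 98.7 FPKM in wbc19 mutant + kanamycin. PRPL28 (AT2G33450) was at 147, 244, 58.3 and 167 FPKM, and 3.22% of the 36-base windows of its transcript occur elsewhere in the genome, so that part of its reads may not map to it alone. PRPL31 (AT1G75350), which in bacteria bridges the subunits, was at 300, 164, 105 and 247 FPKM. PRPL3 (AT2G43030), which starts assembly of the large subunit in bacteria, was at 239, 230, 111 and 131 FPKM. PRPL18 (AT1G48350), which binds the 5S rRNA in bacteria, was at 255, 141, 116 and 167 FPKM. PSRP3A and PRPS13 completed the set, each with a log2 difference of -1.46. For 7 of the 8 the wbc19 mutant library held the lowest of the 4 values, and the exception was PRPS13, whose lowest value was in control + kanamycin.

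**Figure D2:**
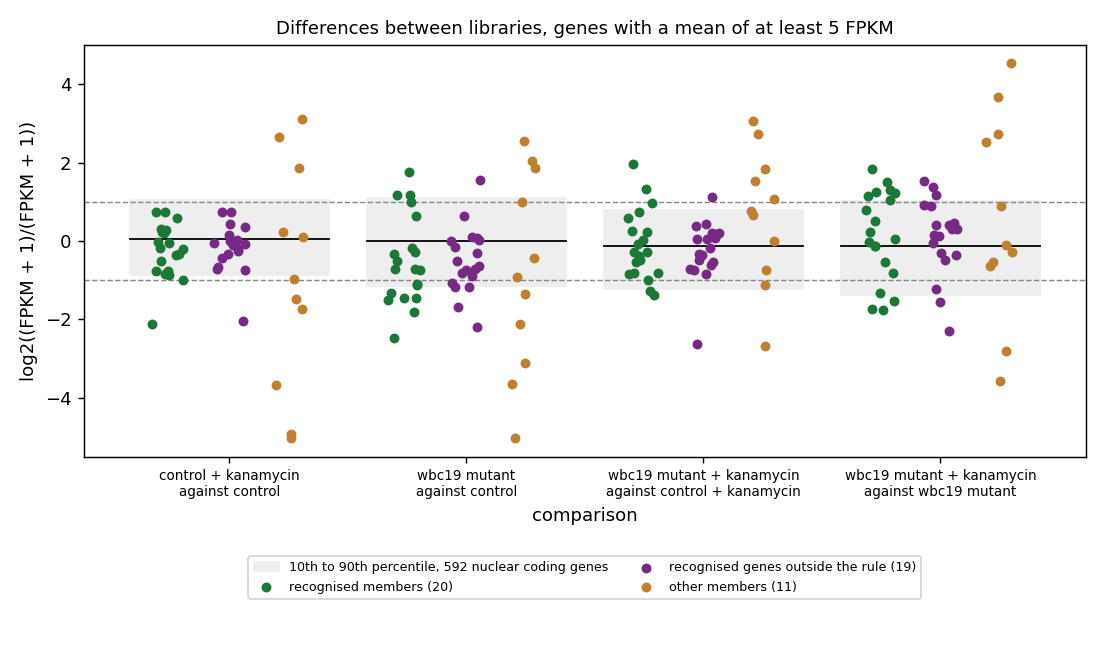
Log2 difference of (FPKM + 1) in the 4 comparisons for the 20 recognised members, the 19 recognised genes outside the rule and the 11 other members whose mean reached 5 FPKM, 1 point per gene; the grey band runs from the 10th to the 90th percentile of 592 nuclear protein-coding genes whose mean reached 100 FPKM, the black line is their median, and dashed lines mark 2-fold. Between the control libraries 1 of the recognised members lies past a dashed line, at -2.13, and between the wbc19 mutant library and the control they spread from -2.46 to 1.77.

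The comparison of wbc19 mutant + kanamycin with the wbc19 mutant library shares the latter with the comparison above, so that the values are given side by side and neither backs the other. It had 11 of the 20 apart, 7 higher and 4 lower, against 62.8% of all rows that passed (35.7% higher and 27.1% lower), and at a mean of at least 100 FPKM 10 of 19 (52.6%) against 32% of 781 rows and 28.2% of the 592 genes. The 7 higher genes were PRPL19B at 1.85, PRPL28 at 1.505, PRPS13 at 1.301, PRPS10 at 1.26, PRPL31 at 1.23, PSRP3A at 1.16 and PRPS20 at 1.04 on the log2 scale. The 4 lower genes were PRPS6 at -1.77, PRPL35 at -1.73, PRPL19A at -1.54 and PRPL27 (AT5G40950) at -1.34. Scaled by the upper quartile, none of these 4 stayed past 2-fold, with PRPS6 at -0.96, PRPL35 at -0.91, PRPL19A at -0.74 and PRPL27 at -0.53, and the split became 10 higher and 0 lower, beside 46.8% and 18.0% of all rows. PRPL27, whose bacterial counterpart reaches the peptidyl transferase centre, was at 236 FPKM in the control, 289 FPKM in control + kanamycin, 370 FPKM in the wbc19 mutant library and 146 FPKM in wbc19 mutant + kanamycin.

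Between the libraries with kanamycin, 4 of the 20 were apart, 2 higher and 2 lower, against 59.4% of all rows that passed (29% higher and 30.4% lower), and at a mean of at least 100 FPKM 4 of 19 (21.1%) against 27.7% of 781 rows and 22% of the 592 genes, which is a share near the background. PRPS13 and PRPS20, both of the small subunit, were higher in wbc19 mutant + kanamycin, by 1.97 and 1.33 on the log2 scale. PRPL19B and PRPL24 were lower, with log2 differences of -1.37 and -1.28. Scaled by the upper quartile they were at -0.82 and -0.73, short of the limit, and the split became 5 higher and 0 lower, beside 36.7% and 22.7% of all rows. PRPL24 (AT5G54600), an assembly initiator in bacteria, was at 224 FPKM in the control, 335 FPKM in control + kanamycin, 199 FPKM in the wbc19 mutant library and 138 FPKM in wbc19 mutant + kanamycin.

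Set against the median of the other 3 libraries, the wbc19 mutant library was at least 2-fold away for 10 of the 19 recognised members whose mean reached 100 FPKM (52.6%), 3 above and 7 below. The control was so for 5.26% of them, control + kanamycin for 10.5% and wbc19 mutant + kanamycin for 10.5%. Of the 592 nuclear protein-coding genes at that level, 22.1% stood so far away in the wbc19 mutant library, 9.12% in the control, 16.7% in control + kanamycin and 12.2% in wbc19 mutant + kanamycin, and of all 781 rows 27.5%, 14.2%, 23.4% and 16.1%. The recognised genes outside the rule gave 21.1% in the wbc19 mutant library, close to that background. Scaled by the upper quartile, the share in the wbc19 mutant library was 57.9% in both sets and 35.98% of the 592 genes, and that in the control rose to 47.4% of the recognised members, so that neither the gap between the sets nor the low share of the control held under that scaling. As deposited, the share in the wbc19 mutant library was 36.8% (14 genes) over all 38 recognised genes at that level together. The order of the libraries in this share was also their order by rows above 0, from the fewest to the most, among the 592 genes.

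**Figure D3:**
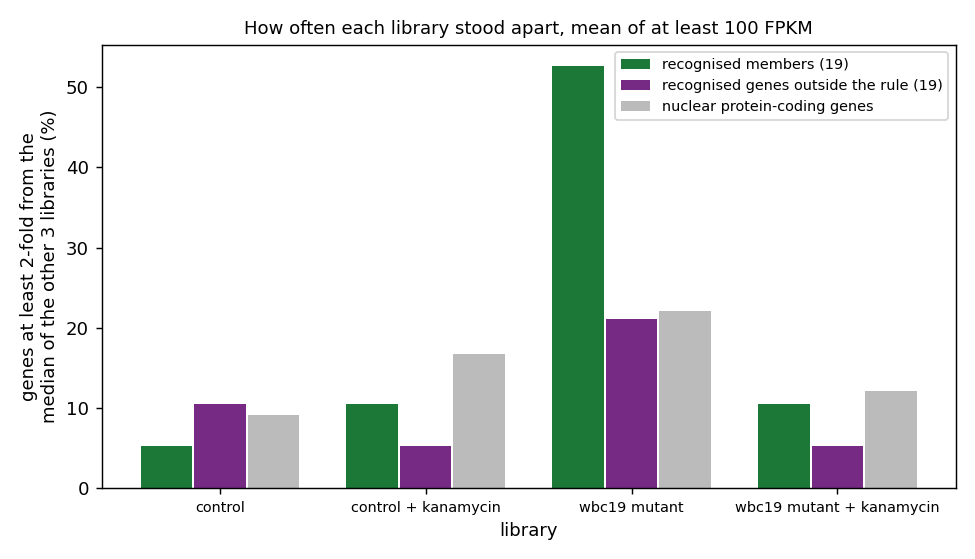
Percentage of genes at least 2-fold from the median of the other 3 libraries, for each library, over 19 recognised members, 19 recognised genes outside the rule and 592 nuclear protein-coding genes whose mean reached 100 FPKM. The wbc19 mutant library has the tallest bar in each set, at 52.6%, 21.1% and 22.1%.

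The genes of protein L19, which in bacteria lies at the interface of the subunits, had opposite patterns. PRPL19A (AT4G17560, chromosome 4, 9780279 to 9782183, TAIR10) was at 77.7 FPKM in the control (60.2 to 98.6), 45.2 FPKM in control + kanamycin (35.7 to 56.5), 156 FPKM in the wbc19 mutant library (137 to 178) and 52.98 FPKM in wbc19 mutant + kanamycin (38.6 to 70.9). PRPL19B (AT5G47190, chromosome 5, 19164246 to 19166107) was at 128 FPKM (103 to 159), 217 FPKM (193 to 243), 22.4 FPKM (14.5 to 33.1) and 83.5 FPKM (63.1 to 108) in the same order. PRPL19B was thus the higher of the pair in every library except that labelled wbc19 mutant, where the order turned. PRPL19A made up 37.7% of their summed level in the control, 17.2% in control + kanamycin, 87.4% in the wbc19 mutant library and 38.8% in wbc19 mutant + kanamycin. On the scale of log2 (FPKM + 1), PRPL19A was 0.9994 higher in the wbc19 mutant library than in the control, at the limit, and scaled by the upper quartile the difference was -0.01. PRPL19B was lower there by 2-fold or more under every scaling. Shares within a library do not depend on the scaling. The sum moved less, at 206, 262, 179 and 136 FPKM. The paralogs differ enough in sequence for reads to be told apart, since only 7 of the 1193 windows of 36 bases in the transcript of PRPL19A and 7 of the 974 in that of PRPL19B occur elsewhere in the genome.

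**Figure D4:**
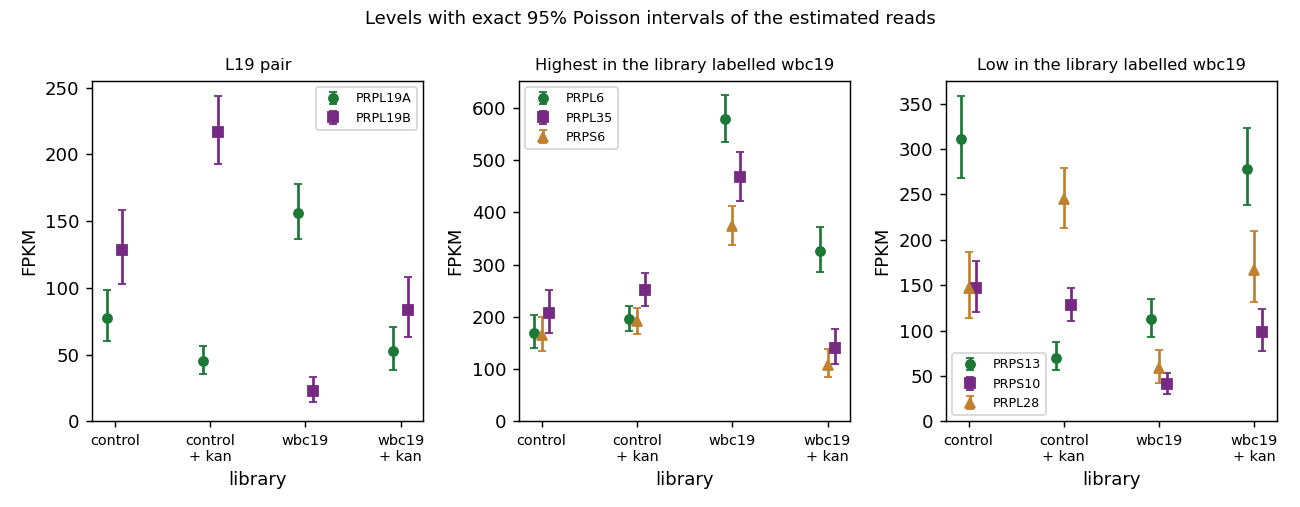
FPKM by library (linear axis from 0) of the L19 pair, of 3 members highest in the wbc19 mutant library and of 3 members low there; bars are exact 95% Poisson intervals of the estimated reads, which cover the counting of reads only. PRPL19A is at 156 FPKM in the wbc19 mutant library, where PRPL19B is at 22.4 FPKM.

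The subunits were compared by their recognised members above 5 FPKM. The 14 large-subunit genes had medians of 237, 237, 189 and 166 FPKM in the order control, control + kanamycin, wbc19 mutant and wbc19 mutant + kanamycin. The 6 small-subunit genes had medians of 160, 113, 103 and 185 FPKM, so that they were below the large-subunit genes in every library except wbc19 mutant + kanamycin. Between the libraries labelled wbc19 mutant, with kanamycin against without, the median log2 difference was -0.07 over the large-subunit genes, with 3 higher and 3 lower, and 1.10 over the small-subunit genes, with 4 higher and 1 lower. Small-subunit genes outside the rule went differently in that comparison, and none of them was 2-fold higher. PRPS9 was at -2.29, PRPS5 at -1.56, PRPS21 at -1.21 and PSRP2 at -0.06. PSRP4 was at 0.15, PRPS17 at 0.40 and PRPS1 at 0.89. The counts above are of few genes and the difference between the subunits was not tested.

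The 17 other members were expressed at far lower levels. Their means ran from 0 to 75.3 FPKM with a median of 8.84, and together they made up 292, 144, 281 and 173 FPKM of the sums above. The 4 genes AT1G22110, AT3G06180, AT5G51610 and AT5G63300 were listed at 0 in every library. AT5G19025 and AT5G15260 were at 6.69 and 3.01 FPKM in the control, from about 4 and 2 reads, and listed at 0 elsewhere. The remaining 11 passed a mean of 5 FPKM, and 5 of them were listed at 0 in at least 1 library. Of the 11, 8 were at least 2-fold apart between the control libraries, 8 between the wbc19 mutant library and the control, 7 between the libraries with kanamycin and 6 between the libraries labelled wbc19 mutant, beside backgrounds of 57.4%, 61%, 59.4% and 62.8%. Most of these values rest on few reads. Over all 31 members that passed, recognised or not, 9, 19, 11 and 17 were apart in the same order of comparisons, with medians of -0.19, -0.71, 0.00 and 0.05 on the log2 scale.

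AT1G26880, a member of the L34e superfamily, had the most reads of them. It was at 90.4 FPKM in the control (73.4 to 110), 6.17 FPKM in control + kanamycin (3.29 to 10.6), 180 FPKM in the wbc19 mutant library (161 to 200) and 24.8 FPKM in wbc19 mutant + kanamycin (16.3 to 36.1). Both libraries with kanamycin were below both without, with log2 differences of -3.67 in the control line and -2.81 in the line labelled wbc19 mutant. Its relative AT3G01170 was at 1.12, 12.3, 11.5 and 7.01 FPKM and did not share that pattern.

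AT3G20230, an L18-like protein, was at 52.7, 18.4, 38.8 and 31.95 FPKM. With kanamycin it was lower by 2-fold or more in the control line, at -1.47. In the line labelled wbc19 mutant the difference was -0.27, with overlapping intervals of 28.6 to 51.4 FPKM without kanamycin and 20.5 to 47.5 FPKM with it. AT3G17170, an S6-like protein named RFC3, was at 23.4, 11.4, 1.81 and 34.9 FPKM, with about 3 reads in the wbc19 mutant library. AT1G26910, a gene of the L10 protein of the cytosolic ribosome by its name, RPL10B, was at 3.35 FPKM in the control, 36.4 FPKM in control + kanamycin, listed at 0 in the wbc19 mutant library and at 4.81 FPKM in wbc19 mutant + kanamycin. AT2G20060, of the L4 family, was at 31.6 FPKM in the control, listed at 0 in control + kanamycin and in the wbc19 mutant library, and at 5.60 FPKM, from about 5 reads, in wbc19 mutant + kanamycin. AT1G80620, of the S15 family, was at 2.35 FPKM, listed at 0, at 11.1 FPKM and at 7.41 FPKM in that order.

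Of the 4 L12-like members, AT3G06040 was at 35.7, 38.3, 18.4 and 17.2 FPKM, lower in both libraries labelled wbc19 mutant, with log2 differences of -0.92 without and -1.11 with kanamycin. AT4G36420 was at 29.1 FPKM in the control and 10.8 FPKM in the wbc19 mutant library and was listed at 0 in both libraries with kanamycin, where 3 reads would have been worth 2.37 and 4.73 FPKM. AT4G37660 was at 11.5 and 13.7 FPKM in the control libraries, listed at 0 in the wbc19 mutant library and at 22.2 FPKM in wbc19 mutant + kanamycin. AT1G70190 was at 1.40, 7.73, 8.90 and 17.3 FPKM, from 2 to 19 reads. The recognised L12 genes of the plastid lie outside the rule.

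Other genes of the same pathway were read from lists. The study's text names a chloroplast L9 protein among the plastid genes that changed in control seedlings on kanamycin. It gives no locus, so both L9 genes are given here. PRPL9 (AT3G44890), the plastid L9 gene, lies outside the rule and was at 137 FPKM in the control, 108 FPKM in control + kanamycin, 76.9 FPKM in the wbc19 mutant library and 95.2 FPKM in wbc19 mutant + kanamycin, with no comparison 2-fold apart. The other L9 gene, AT5G53070, was at 1.28 FPKM in the control and 49.5 FPKM in control + kanamycin, from about 1 and 77 reads, and listed at 0 in both libraries labelled wbc19 mutant. Of the recognised genes outside the rule PRPS17 (AT1G79850) was the highest, at 291, 254, 262 and 345 FPKM, followed by PSRP5 (AT3G56910) at 335, 249, 200 and 263 FPKM. Of 12 genes of plastid translation factors, 1 was higher and 3 lower in the wbc19 mutant library than in the control. The shares over all rows that passed were 23.9% and 37.2%. The median log2 difference of the 12 was -0.35, against -0.28 over all rows that passed. The elongation factor EF-Tu (AT4G20360) was at 398, 286, 329 and 365 FPKM and SVR3 (AT5G13650), a translation GTPase, at 89.4, 147, 152 and 119 FPKM. Of 14 genes of plastid ribosome assembly that passed, 1 was higher and 5 lower in that comparison, beside the same shares of all rows, with a median of -0.24. RH3 (AT5G26742), a DEAD-box helicase of that list, was at 98.7, 88.5, 0.00763 and 65.8 FPKM, where the third value is below that of 1 read, and YBEY (AT2G25870), an rRNA endonuclease, was at 27.8, 27.3, 37.1 and 16.4 FPKM.

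The cytosolic ribosome showed the same order of levels between the libraries without kanamycin. Its 152 genes summed to 17271 FPKM in the control, 15701 FPKM in control + kanamycin, 12967 FPKM in the wbc19 mutant library and 13043 FPKM in wbc19 mutant + kanamycin. Of these, 134 passed a mean of 5 FPKM. In the wbc19 mutant library 10 of them were at least 2-fold higher than in the control and 53 lower. The shares over all rows that passed were 23.9% higher and 37.2% lower. The median log2 difference of the 134 was -0.67, against -0.71 for the recognised members and -0.28 over all rows that passed. At a mean of at least 100 FPKM it was -0.48 over 68 cytosolic genes and -0.71 over 19 recognised members. The highest cytosolic genes were AT3G04400, at 280, 365, 364 and 391 FPKM, and AT5G02960, at 443, 339, 351 and 139 FPKM. The lower median in the wbc19 mutant library was thus shared by the genes of both ribosomes. The 24 rows of ribosomal proteins encoded in the plastid genome summed to 5524, 7003, 6931 and 3568 FPKM, in RNA that was selected for poly(A) tails, which most plastid transcripts lack. The highest rows were ATCG01020, at 713, 2373, 475 and 352 FPKM, and ATCG00330, at 860, 742, 841 and 869 FPKM. Without ATCG01020 the sums were 4811, 4631, 6456 and 3216 FPKM, so that the higher sum in control + kanamycin than in the control rests on that row. Of the 23 rows that passed, 4 were higher and 8 lower in control + kanamycin, beside 26.6% and 30.8% of all rows. Among the reference genes UBQ10 (AT4G05320) was at 576, 444, 329 and 501 FPKM and EF1A (AT5G60390) at 459, 347, 373 and 370 FPKM. The 8 genes of that list had a median log2 difference of -0.89 between the wbc19 mutant library and the control, with 3 lower, beside 37.2% of all rows. The 2 mitochondrial ribosomal protein genes that passed, AT1G77750 and AT5G56940, were at 28.3, 5.38, 21.3 and 1.93 FPKM and at 24.5 FPKM, listed at 0, at 1.18 FPKM and listed at 0. Of the markers RBCS1A was at 8813, 6472, 11376 and 7282 FPKM, LHCB1.3 at 3926, 3996, 4754 and 4942 FPKM, PYK10 at 910, 605, 1299 and 496 FPKM and SCR at 5.04, 24.5, 17.6 and 30.8 FPKM.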

How the data were processed

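Polyadenylated RNA was cut to short fragments, amplified by PCR without molecular identifiers and read on an Illumina GAII. The submitters' notes and the study's methods name TopHat2 2.0.5, Cufflinks 2.0.2 and Cuffdiff 1.3.0 with the TAIR10 genome. The deposited values are FPKM per gene, which the authors computed and which are relative to transcript length and to the mapped fragments of each library; columns of fold changes, p-values and status from the authors' own comparisons were not used. Of 33624 rows, 78 whose copies of a column differed and 7 without a value were left out, and 27 values written as 0.01 were read as 0.

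Groups were taken from the labels. With 1 library per condition no test was run; differences are log2 of (FPKM + 1), counted at 2-fold or more over rows with a mean of at least 5 FPKM, beside the same over all rows (Python 3.11.15, numpy 2.4.6, pandas 2.3.3, scipy 1.17.1, matplotlib 3.10.9). Reads behind a value were estimated from the step of the lowest FPKM, with 25 bases taken off each transcript; of values worth 0.5 to 2.5 reads, 84.4%, 86.2%, 89.3% and 82.2% in the order control, control + kanamycin, wbc19 mutant and wbc19 mutant + kanamycin lay within 0.2 of a whole read. Exact 95% Poisson intervals and the floor of 3 reads for a value of 0 rest on these estimates and cover counting error only. The steps imply 747843, 1490986, 1257893 and 747843 reads in the same order. Each is below the mapped reads that the study lists for any of its libraries, and the reason was not tested. The 2-fold rule was also run on simulated libraries with known folds and Poisson counting alone. These hold no variation between libraries and no PCR copies, so they cannot show how the rule does on single libraries. RefSeq TAIR10.1 gave promoters and introns; 32628 of 32629 nuclear loci overlapped their place in the files, 8897 with the same ends.

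The members and the lists were chosen with earlier results of these data known. The mean of at least 100 FPKM, the 25 bases, the rows of plastid-encoded proteins (locus in the plastid genome and ribosomal protein in the description) the sum over protein-coding genes, the sum without ATCG01020 and the comparison of each library with the median of the others were chosen after the values were seen. Named are the 8 members with the highest mean, those at least 2-fold apart in any comparison (more than the 16 of the rule, to account for every member), those listed at 0 in some libraries, paralogs, the L9 genes and the 2 highest genes of each list. Alternatives were pseudocounts of 0.1 and 5 FPKM, no filter or a mean of at least 20 FPKM, 3 scalings and the recognised list. The promoter sequence of 1 member is not reported here.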

Additional observations from a re-analysis of the deposited data

Results flagged for a closer look

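For 2 members the difference between the libraries with and without kanamycin went in opposite directions in the 2 lines, by at least 2-fold in each, and the difference between the lines was not tested, since each condition has 1 library. For PRPS13 the log2 difference with kanamycin was -2.13 in the control line and 1.301 in the line labelled wbc19 mutant, which are 3.43 apart. For AT2G20060 it was -5.02 and 2.72, which are 7.75 apart, but the gene was listed at 0 in control + kanamycin and in the wbc19 mutant library and rested on about 5 reads in wbc19 mutant + kanamycin.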

How the results depend on the processing

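No value turned its direction once it was 2-fold apart under the pseudocounts of 0.1 and 5 FPKM or the 3 scalings, over 29 named members in 4 comparisons. No paired analysis was possible because each condition has 1 library, and for the same reason no library was left out in turn. Scaling to the same sum over all nuclear rows was not run, because short assembled rows set that sum.

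The members at least 2-fold apart numbered 9 between the control libraries, and 18 when scaled by upper quartile, 3 above a mean of 20 FPKM, 2 over the recognised list by locus, and 1 both above a mean of 100 FPKM and among the recognised members alone. Between the wbc19 mutant library and the control they numbered 19, and 11 at a mean of at least 20 FPKM, at 100 FPKM and among the recognised members alone. Between the libraries with kanamycin they numbered 11, and 6 above a mean of 20 FPKM and over the recognised list, and 4 at 100 FPKM and among the recognised members alone. Between the libraries labelled wbc19 mutant they numbered 17, and 10 at 100 FPKM and 11 among the recognised members alone. These sets hold fewer genes than the 31, or other genes. Scaled by upper quartile, the split of the members into higher and lower changed from 3 and 6 to 3 and 15 between the control libraries, from 6 and 13 to 3 and 22 between the wbc19 mutant library and the control, from 7 and 4 to 12 and 1 between the libraries with kanamycin, and from 11 and 6 to 15 and 2 between the libraries labelled wbc19 mutant.

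Scaled by upper quartile, the median log2 difference of the members was -0.95 in place of -0.19 between the control libraries and -1.73 in place of -0.71 between the wbc19 mutant library and the control, while the median of all rows was -0.71 in place of 0.00 and -1.21 in place of -0.28. The upper quartile over rows above 0 moves with how many low rows a library detects. The summed level of the members became 7021, 3548, 3012 and 4710 FPKM in the order control, control + kanamycin, wbc19 mutant and wbc19 mutant + kanamycin; by median ratio it became 4055 FPKM in control + kanamycin and 4146 FPKM in wbc19 mutant + kanamycin, and by the sum over nuclear protein-coding genes 4036 FPKM in the latter. Of 116 values of single members, 79 moved beyond their counting interval by upper quartile, 9 at a pseudocount of 0.1 FPKM and 0 under the others.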
